A study of Mus musculus with 4 samples.

Results

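Genes of DNA double-strand break and interstrand crosslink repair were described in mouse embryonic stem cells (ESCs) in which the m6A reader gene Ythdf2 was knocked down. The members are 42 genes, chosen by name from 5 roles: damage signalling, homologous recombination, end joining, the Fanconi pathway and mismatch repair. They are 42 of the 49997 genes in the deposited table, and all 42 passed the filter on low counts that left 18341 genes for testing. The cells were of the E14 line, a pluripotent line from the early mouse embryo, and according to the study's methods they carried a tdTomato reporter driven by the promoter of the MERVL retrotransposon. A lentiviral short hairpin RNA was expressed from the U6 promoter in both groups, with puromycin selection, and the labels name no DNA-damaging treatment. The 2 control libraries carried a scrambled hairpin (shScramble), and the 2 knockdown libraries carried a hairpin against Ythdf2 (shYthdf2). The study lists 2 hairpins against Ythdf2, and the labels do not say which was used here. All cells grew on gelatin with serum replacement and leukemia inhibitory factor.

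A break through both DNA strands is sensed by the MRE11-RAD50-NBN complex, which activates the kinase ATM, whereas single-stranded DNA at resected ends and stalled forks activates the kinase ATR. The break is then joined directly by the Ku proteins, DNA-PKcs and ligase IV, or copied from the sister chromatid by homologous recombination, in which BRCA1, BRCA2 and PALB2 take part. Crosslinks between the strands are unhooked after the Fanconi core complex attaches ubiquitin to FANCD2 and FANCI. ATM and ATR also act on p53, which induces genes such as Mdm2 and Cdkn1a. ESCs divide fast, spend much of their cycle in S phase and are known for high levels of many replication and recombination genes.

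Total counts ranged from 31113006 to 36422510 reads per library. Ythdf2 itself had 3365 and 2760 reads under shScramble and 1086 and 1082 reads under shYthdf2. It fell by 1.55 on the log2 scale, to 34.3% of the control level (SE 0.11, edgeR adjusted p = 0.00069). The 9 ESC markers were all detected, with a summed level of 6592 and 6362 CPM (reads scaled to a common library total) in shScramble and 6229 and 5668 CPM in shYthdf2. Of these 1 was called lower, Tdgf1, which fell by 0.47 on the log2 scale, and 3 were lower at an unadjusted p under 0.05. The 14 markers of 2C-like cells, a rare ESC state resembling the 2-cell embryo, summed to 47.9 and 70.9 CPM under shScramble and to 94.7 and 239.7 CPM under shYthdf2. Of the 13 that were tested, 3 passed the threshold and were higher, and Duxf3 was at 0 reads in shScramble replicate 2. The 6 neural markers summed to 104 to 149 CPM in shScramble and 169 to 230 CPM in shYthdf2. Most of that sum was Tubb3 (114.6 and 69.2 CPM against 179.1 and 126.2 CPM), which was not called. Of the 5 tested, 1 was called higher, Nes, at 14.6 and 13.6 CPM against 26.4 and 22.1 CPM. The log2 fold change was above 0 in 4 of the 5 and below 0 in 1, Map2. The 9 fibroblast markers summed to 20.2 to 33.3 CPM over the 4 libraries, with Dcn at 0 reads in all of them. In RNA from whole cultures, fewer cells of a type and less RNA per cell cannot be told apart. What part these cells had in the values of the repair genes was not tested.

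No repair gene passed the test across all genes, in either direction. With edgeR's quasi-likelihood test at an adjusted p under 0.05, 0 of the 42 members were called higher, where 2.43% of all tested genes were, and 0 were called lower, where 1.49% were. At an unadjusted p under 0.05, 1 member was higher (2.38% of the members against 11.0% of all genes) and 7 were lower (16.7% against 9.80%). DESeq2 called 2 members at an adjusted p under 0.05, Atm and Atr, both lower. Over the whole table it called 602 genes lower and 800 higher at that threshold. The study's criteria of an unadjusted p of at most 0.05 and at least a 2-fold change were met by 0 members with DESeq2, and by 498 genes that were higher and 382 that were lower in the whole table. The log2 fold change was above 0 in 15 members and below 0 in 27, with a median of -0.07 beside 0.00 over all genes tested. Both shYthdf2 libraries lay below both shScramble libraries in 15 members (35.7%, where 25.5% of all genes did) and above them in 6 members (14.3%, where 26.2% of all genes did).

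**Figure D1:**
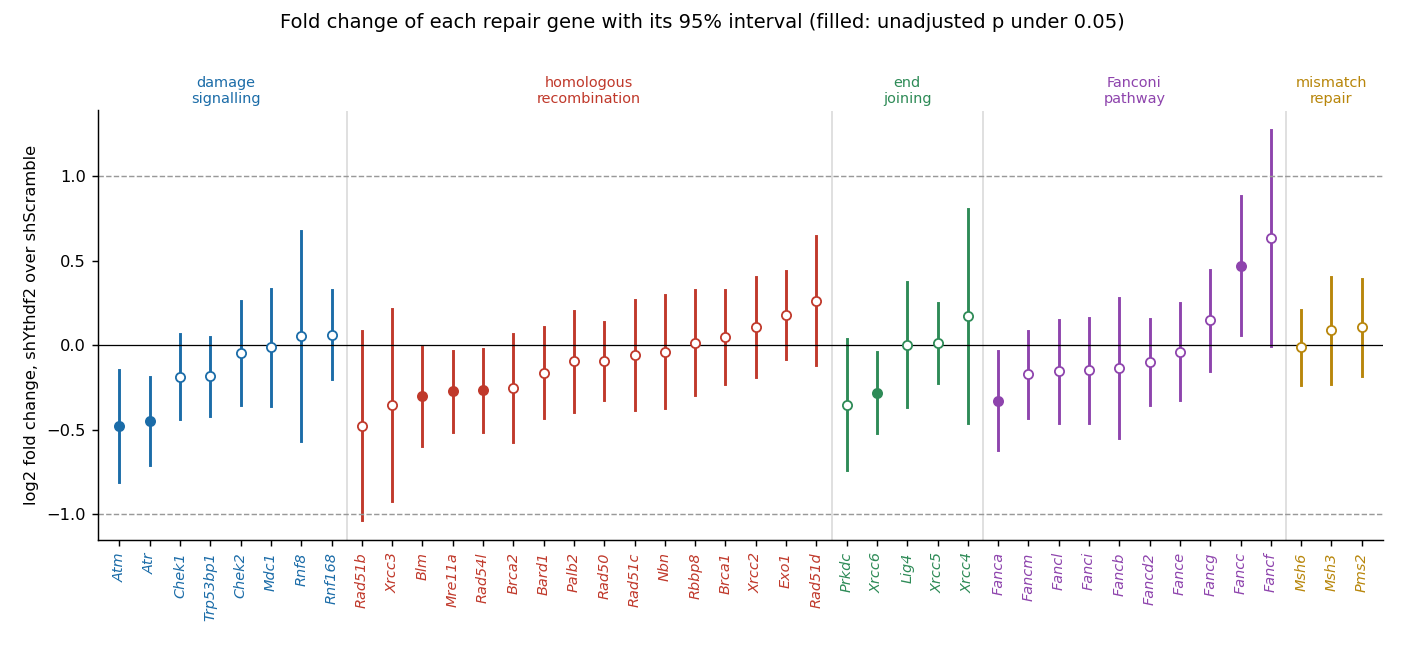
Log2 fold change of shYthdf2 over shScramble (vertical axis) for each of the 42 repair genes (horizontal axis, grouped and coloured by role), with the 95% interval of the edgeR fit. Filled points have an unadjusted p under 0.05; these are 7 genes below 0 and Fancc above 0, and none passed the adjusted threshold. The dashed lines mark a 2-fold change either way.

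For most members the fit gave a narrow interval. It combines the spread between the 2 libraries of each group for that gene with a spread estimated over all tested genes. The standard error of the log2 fold change had a median of 0.13 over the members and ran from 0.099 for Msh6 to 0.29 for Fancf. The 95% interval lay within a 1.5-fold change either way for 30 of the 42 members, and within a 2-fold change for 40 of them. The other two were Rad51b and Fancf, both of low level. The members were well covered, with 37 of the 42 at a mean of at least 10 CPM and a median of 68.2 CPM, against 11.7 CPM over all tested genes. Together they took 0.340% and 0.348% of all reads under shScramble and 0.292% and 0.343% under shYthdf2, so the shYthdf2 replicate 1 library held the smallest share.

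Among the damage signalling genes, Atm and Atr had the lowest fold changes of the 8 and the lowest p-values of all 42 members. Atm (chromosome 9, bases 53437122 to 53536828 of mm10, minus strand), the kinase that responds to double-strand breaks, gave 173 and 149 CPM in shScramble and 98.6 and 133 CPM in shYthdf2. Both knockdown libraries lay below both controls, and replicate 1 lay the farthest below. Its log2 fold change was -0.48 (SE 0.15, 95% interval -0.81 to -0.15, unadjusted p = 0.0093, edgeR adjusted p = 0.106, DESeq2 adjusted p = 0.029). Atr (chromosome 9, bases 95857597 to 95953217, plus strand), the kinase that responds to single-stranded DNA at forks and resected ends, gave 96.6 and 96.3 CPM in shScramble and 65.2 and 76.2 CPM in shYthdf2. The controls were almost equal and both knockdown libraries were lower. Its log2 fold change was -0.45 (SE 0.12, 95% interval -0.71 to -0.19, unadjusted p = 0.0032), and its edgeR adjusted p of 0.064 was the lowest of the members (DESeq2 adjusted p = 0.016). The 250 bases upstream of the start of each gene in the RefSeq table (build GRCm38.p6, the assembly of mm10) are shown because no other members came closer to the threshold. They run 5′ to 3′ on the gene's own strand and end at the base before that start. For Atm, and for Fancc, Xrcc6 and Bard1 shown later, the deposited annotation also holds transcripts that begin further upstream. The window of Fancc or Xrcc6 thus lies within the gene's full span, and that of Atm or Bard1 lies only partly within it. In every sequence shown, capitals mark a match to 1 of 5 motifs, those of E2F, CCAAT box, NRF1, ETS and CHR.

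Atm chr9:53536672-53536921 (- strand): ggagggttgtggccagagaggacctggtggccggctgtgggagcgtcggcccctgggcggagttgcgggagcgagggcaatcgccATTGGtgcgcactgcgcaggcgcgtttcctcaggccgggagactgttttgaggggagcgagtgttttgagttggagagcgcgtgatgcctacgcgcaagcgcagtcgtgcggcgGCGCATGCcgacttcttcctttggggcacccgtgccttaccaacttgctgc

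Atr chr9:95857347-95857596 (+ strand): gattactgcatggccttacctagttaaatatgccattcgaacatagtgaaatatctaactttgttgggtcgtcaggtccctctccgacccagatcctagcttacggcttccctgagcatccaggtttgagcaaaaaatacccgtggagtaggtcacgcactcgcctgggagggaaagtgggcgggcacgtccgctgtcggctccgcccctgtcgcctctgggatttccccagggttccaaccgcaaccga

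Atm and Atr lie on chromosome 9, as do the member genes Chek1 and Mre11a, and in all 4 of them both shYthdf2 libraries lay below both controls, as in 25.5% of all genes. The chromosome was singled out after the values were seen. Over the 522 tested genes of chromosome 9 with a mean of at least 10 CPM, the median log2 fold change was -0.03. Chek1, the kinase that ATR activates, gave 88.4 and 90.0 CPM in shScramble and 73.2 and 83.6 CPM in shYthdf2, a log2 fold change of -0.19 (95% interval -0.44 to 0.07). Trp53bp1, whose product 53BP1 protects broken ends from resection, gave 111 and 104 CPM against 94.8 and 94.1 CPM, a log2 fold change of -0.18 (95% interval -0.42 to 0.05). The knockdown libraries were the lower pair for both genes, but neither interval left out 0. Chek2, the kinase that ATM activates, had a log2 fold change of -0.04. Mdc1, the scaffold that binds phosphorylated H2AX, had one of -0.01, with 209 and 248 CPM in shScramble and 190 and 263 CPM in shYthdf2, so the replicates of each group differed more than the groups. Of the ubiquitin ligases that mark chromatin beside a break, Rnf8 had a log2 fold change of 0.06 and Rnf168, the highest of this role, 0.06. Rnf168 gave 63.9 and 65.6 CPM in shScramble and 62.6 and 72.6 CPM in shYthdf2, which overlap. For Rnf8, 78.4% of the exon bases also belong to an overlapping gene on the same strand (Gm28043), and reads there were left out of the table. Over the 8 genes of this role, 0 were called, where 2.43% of all genes were called higher and 1.49% lower. At an unadjusted p under 0.05, 2 of the 8 were lower, where 9.80% of all genes were. The median log2 fold change of this role was -0.11.

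Of the 16 homologous recombination genes, 11 had a log2 fold change below 0 and 5 above 0, with a median of -0.09. Both shYthdf2 libraries lay below both controls in 6 of them, where 25.5% of all genes did, and above in 3, where 26.2% did. Mre11a, Rad54l and Blm had an unadjusted p under 0.05 and were lower, where 9.80% of all genes were. Their edgeR adjusted p-values were 0.184 to 0.227. Mre11a, the nuclease of the complex that first binds a broken end, gave 76.1 and 77.7 CPM in shScramble and 62.7 and 64.6 CPM in shYthdf2, a log2 fold change of -0.27 (SE 0.11, unadjusted p = 0.029). The replicates of each group lay close together and the groups did not overlap. Its partners in that complex had smaller differences: Rad50 gave 110.2 and 109.5 CPM against 100.3 and 106 CPM (log2 fold change -0.09), and Nbn 26.2 and 28.7 CPM against 24.4 and 29.1 CPM (-0.04). Rad54l, a motor protein that moves along DNA during strand exchange, gave 90.1 and 100.2 CPM in shScramble and 77.8 and 80.4 CPM in shYthdf2 (log2 fold change -0.27, SE 0.11, unadjusted p = 0.036). Blm, the helicase that dissolves joined recombination intermediates, gave 116 and 131 CPM in shScramble and 88.9 and 111 CPM in shYthdf2 (log2 fold change -0.30, SE 0.13, unadjusted p = 0.045). In both genes the knockdown libraries were the lower pair. Without shYthdf2 replicate 1 the value for Blm was -0.15.

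Brca1, Brca2 and their partners did not pass either threshold. Brca2, which acts at the resected end, gave 206 and 178 CPM in shScramble and 138 and 183 CPM in shYthdf2, a log2 fold change of -0.25 (95% interval -0.57 to 0.07). Only shYthdf2 replicate 1 stood below the controls, and without that library the value was -0.06. Brca1, which with BARD1 forms a ubiquitin ligase that promotes resection, gave 151 and 156 CPM against 141 and 176.5 CPM (log2 fold change 0.05), and its partner Bard1 gave 89.6 and 99.9 CPM against 78.1 and 91.4 CPM (-0.16). Palb2, which links BRCA1 to BRCA2, had a log2 fold change of -0.10. Of the resection factors, Rbbp8, which encodes CtIP, had a log2 fold change of 0.02, and the nuclease gene Exo1 gave 85.7 and 73.1 CPM against 89.5 and 90.3 CPM (0.18, 95% interval -0.08 to 0.44).

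The group of Rad51b, Rad51c, Rad51d, Xrcc2 and Xrcc3, which act together in recombination, held the lowest and the highest fold change of this role. Rad51b gave 8.91 and 9.05 CPM in shScramble and 5.12 and 7.80 CPM in shYthdf2, a log2 fold change of -0.47 with a wide interval (-1.03 to 0.08). Rad51d gave 16.9 and 16.7 CPM in shScramble and 22.5 and 17.9 CPM in shYthdf2, a log2 fold change of 0.27 (95% interval -0.12 to 0.65). The groups did not overlap in either gene, and shYthdf2 replicate 1 was the more extreme library in both. Without it the values were -0.20 for Rad51b and 0.09 for Rad51d. Rad51c had a log2 fold change of -0.06, Xrcc2 of 0.11 and Xrcc3 of -0.36. Xrcc3 rests on 172 to 256 reads per library, and 55.5% of its exon bases overlap Klc1 on the other strand.

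Of the 5 end joining genes 0 were called, where 2.43% of all genes were called higher and 1.49% lower. The log2 fold changes of the 5 had a median of 0.00. Xrcc6, which encodes the smaller Ku subunit, gave 87.6 and 92.8 CPM in shScramble and 72.4 and 76.2 CPM in shYthdf2, a log2 fold change of -0.28 (SE 0.11, unadjusted p = 0.027, edgeR adjusted p = 0.176). Xrcc5, which encodes the larger subunit of the same ring-shaped complex, gave 141 and 154 CPM in shScramble and 146 and 152 CPM in shYthdf2, a log2 fold change of 0.01 (95% interval -0.22 to 0.25). The libraries of the groups were separate for the first subunit and overlapped for the second, and the difference between these fold changes was not tested. Prkdc, the kinase that Ku recruits, gave 93.6 and 96.0 CPM in shScramble and 58.7 and 89.9 CPM in shYthdf2, a log2 fold change of -0.35 (SE 0.17, unadjusted p = 0.070). Most of that difference lay in 1 library, and without shYthdf2 replicate 1 the value was -0.08. Xrcc4, the scaffold of the ligation step, gave 8.19 and 4.76 CPM against 7.87 and 6.79 CPM (log2 fold change 0.18), and Lig4, the ligase itself, 19.8 and 18.6 CPM against 17.5 and 21.1 CPM (0.00).

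**Figure D2:**
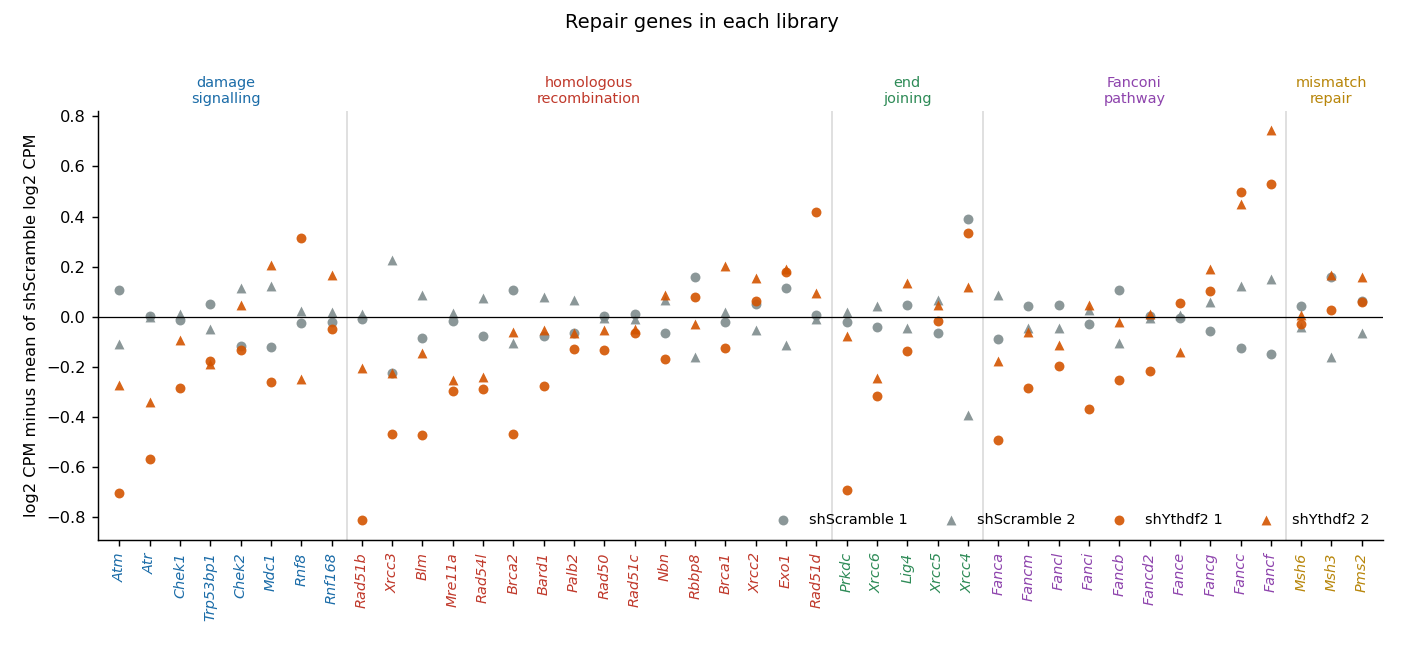
Log2 CPM of each repair gene in each of the 4 libraries, as the deviation from the mean of the shScramble libraries (vertical axis), by gene and role (horizontal axis). Circles are replicate 1 and triangles replicate 2; shYthdf2 replicate 1 (orange circles) is the lowest of the 4 libraries in 27 of the 42 genes.

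The Fanconi genes held the highest fold changes of all members. Fancf, a core complex subunit encoded by a single exon, gave 92 and 99 reads under shScramble and 140 and 170 reads under shYthdf2, or 2.56 and 3.14 CPM against 4.10 and 4.75 CPM. Its log2 fold change was 0.64 (SE 0.29, 95% interval -0.00 to 1.27, unadjusted p = 0.051, edgeR adjusted p = 0.242). Fancc, another core complex subunit, gave 353 and 366 reads against 516 and 522 reads, or 9.80 and 11.6 CPM against 15.1 and 14.6 CPM. Its log2 fold change was 0.47 (SE 0.18, 95% interval 0.06 to 0.88, unadjusted p = 0.028, edgeR adjusted p = 0.181). In both genes each shYthdf2 library was above each control, and the values stayed at 0.74 and 0.45 without shYthdf2 replicate 1. Both lie across another gene, with 28.2% of the exon bases of Fancf shared with Gas2 and 17.7% of those of Fancc shared with Aopep, each on the other strand. The counting used no strand, so reads from the partner that lie outside its annotated exons could not be kept apart from these genes. The upstream sequence of Fancc is shown as the one member that was higher at an unadjusted p under 0.05.

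Fancc chr13:63431746-63431995 (- strand): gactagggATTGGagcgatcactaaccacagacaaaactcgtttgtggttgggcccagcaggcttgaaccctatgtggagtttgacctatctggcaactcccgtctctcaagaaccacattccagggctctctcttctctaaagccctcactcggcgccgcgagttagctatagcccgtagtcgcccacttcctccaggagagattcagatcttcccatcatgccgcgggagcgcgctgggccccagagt

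The other Fanconi members lay on the other side of 0 except for Fancg. Fanca, the core subunit that pairs with FANCG, gave 100.3 and 113 CPM in shScramble and 75.9 and 94.3 CPM in shYthdf2, a log2 fold change of -0.33 (SE 0.13, unadjusted p = 0.032, edgeR adjusted p = 0.192). With shYthdf2 replicate 1 left out the value was -0.18. Fancg gave 27.9 and 30.2 CPM against 31.1 and 33.1 CPM (0.15), so the 2 partners had values of opposite sign. Fancl, the ubiquitin ligase of the core complex, had a log2 fold change of -0.15, Fancb, which binds it, of -0.13, and Fance, which holds FANCD2 to the complex, of -0.04. Fancm, the translocase that anchors the complex to DNA, gave 119.8 and 113 CPM against 95.3 and 111 CPM (-0.17). The substrates that receive ubiquitin had values of -0.10 (Fancd2) and -0.15 (Fanci), and in both of them shYthdf2 replicate 2 lay just above the controls while replicate 1 lay below. Over the 10 genes, 3 had a log2 fold change above 0 and 7 below, with a median of -0.12.

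The 3 mismatch repair members differed the least. Msh6, whose product binds single mismatches, gave 568 and 536 CPM in shScramble and 541 and 554 CPM in shYthdf2, a log2 fold change of -0.01 with the tightest interval of all members (-0.23 to 0.21). Msh3, whose product binds longer loops, had a log2 fold change of 0.09. Pms2, the nuclease subunit, gave 36.1 and 33.1 CPM against 36.0 and 38.5 CPM (0.11, 95% interval -0.18 to 0.39). In none of the 3 genes did the libraries of the groups separate.

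Levels were compared between genes as RPKM (CPM per kilobase of exon) in the shScramble libraries. Msh6 was the highest at 129.5 ± 5.3 RPKM (SD, n = 2), followed by the Ku genes Xrcc5 at 50.8 ± 3.2 and Xrcc6 at 29.9 ± 1.2. Mdc1, at 29.9 ± 3.6, did not differ from Xrcc6 beyond its spread, and Chek1 and Brca1 came next. The lowest were Rad51b at 1.29 and Fancc at 1.17 ± 0.14 RPKM, which differed by less than the SD of Fancc. The Ku genes were thus well above their partners Prkdc at 6.77, Lig4 at 4.53 and Xrcc4 at 3.07 ± 1.2 RPKM. In shYthdf2 Msh6 was at 128 ± 2.1 RPKM and Fancc at 1.63, the latter above Rad51b at 0.929 ± 0.27 RPKM. For Mdc1, Rad51c and Fance the annotation repeats the gene on alternate contigs, and the length on the main chromosome was used in place of the deposited one (7640 bases and not 22388 for Mdc1). Reads placed at several positions were left out, so the level of these 3 genes may be understated. Where other genes overlap the exons, as for Rnf8 and Xrcc3, the level per length is understated.

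**Figure D3:**
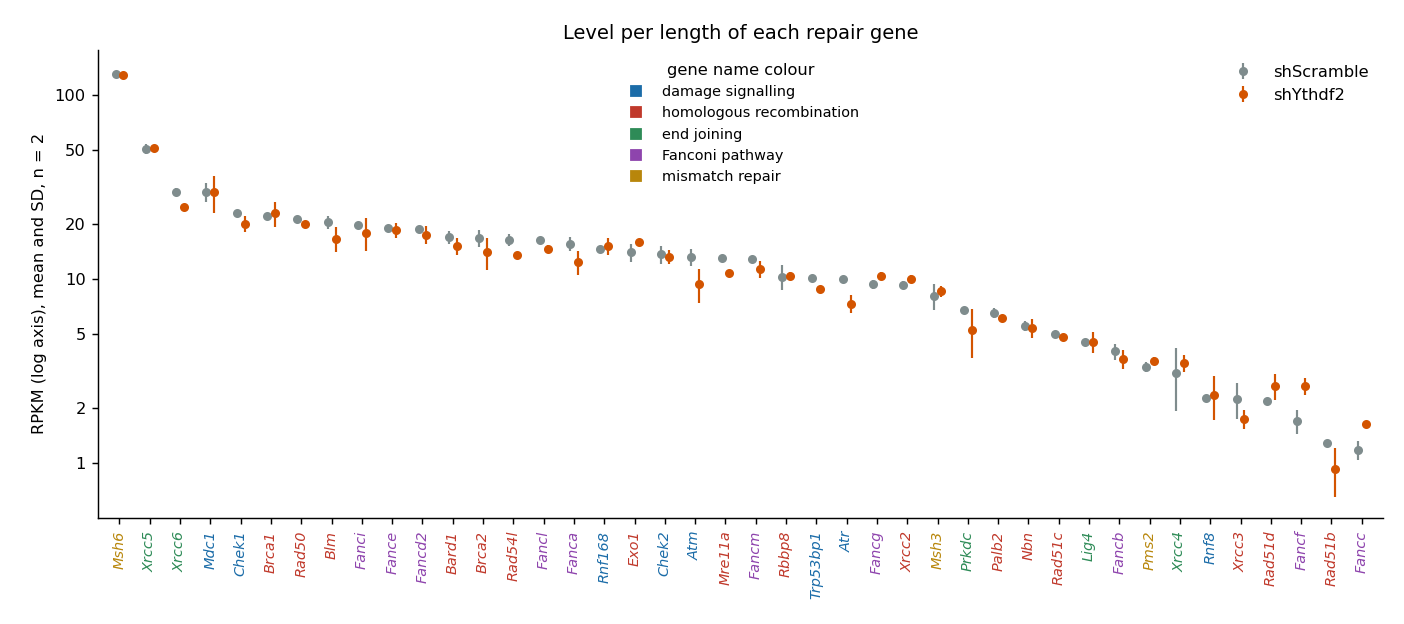
Level per length of the 42 repair genes in RPKM on a log axis, mean and SD of the 2 libraries of each group, ordered by the shScramble level and with gene names coloured by role. Msh6 stands at 129.5 RPKM and the lowest genes, Rad51b and Fancc, near 1.

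The 2 shYthdf2 libraries did not stand equally far from the controls. Replicate 1 was the lowest of the 4 libraries in 27 of the 42 members, whereas it was the lowest in 28.6% of all tested genes, and replicate 2 was the lowest in 3 members. Between libraries of replicate number 1 the median log2 difference of the members was -0.14, and between those of number 2 it was -0.02. Replicate 1 also differed by exon length. Among the 9537 tested genes with a mean of at least 10 CPM, its median deviation from the 4-library mean fell from 0.133 for genes of up to 2 kb to -0.148 for genes over 12 kb on the log2 scale. The other 3 libraries went the other way, from between -0.067 and -0.024 to between 0.042 and 0.064. Deviations from a shared mean cancel out within a gene, so a fall in 1 library makes the others rise on average. The members are long, with a median exon length of 5237 bases against 3337 bases for all tested genes. Across these genes exon length and log2 fold change had a Spearman correlation of -0.24, and across the 42 members one of -0.33 (-0.41 between libraries of number 1 and -0.10 between those of number 2). Exon length was the deposited one, which for Mdc1, Rad51c and Fance includes copies on alternate contigs. All of these values are descriptions across genes that share the same 4 libraries.

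**Figure D4:**
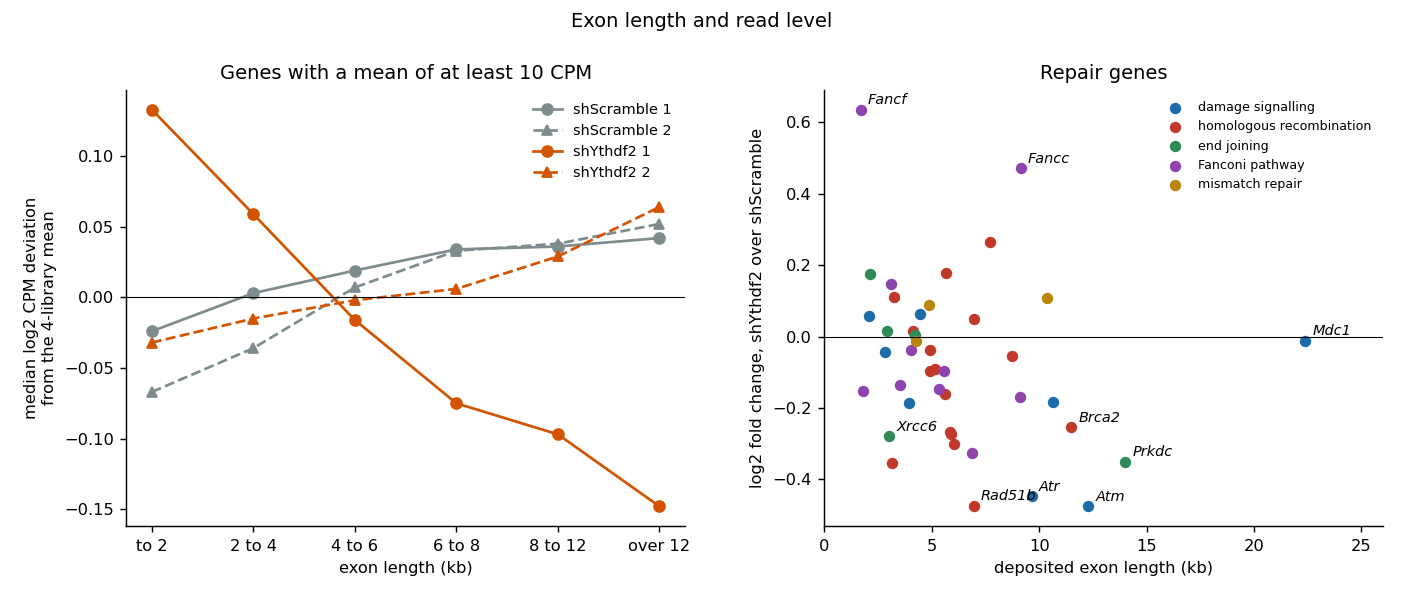
Left, median log2 CPM deviation of each library from the 4-library mean (vertical axis) in bins of exon length in kb (horizontal axis). It covers genes with a mean of at least 10 CPM. The line of shYthdf2 replicate 1 declines from 0.133 to -0.148 while the others rise slightly, as deviations from a shared mean cancel out within a gene. Right, log2 fold change of each repair gene against its deposited exon length in kb, coloured by role; Atm, Atr, Brca2 and Prkdc are long genes with values below 0, and the deposited length of Mdc1 counts 3 copies.

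Without shYthdf2 replicate 1, 19 members were above 0 and 23 below, with a median of -0.04. Only Atm (log2 fold change -0.28) and Atr (-0.34) then had an unadjusted p under 0.05 and were lower, where 8.01% of all genes were. Without replicate 2 instead, 15 members were lower at that threshold, where 12.1% of all genes were. With each library's relation to exon length taken out as an offset, an alternative chosen after the data were seen, the values were -0.42 for Atm (edgeR adjusted p = 0.067), -0.39 for Atr (adjusted p = 0.040) and -0.29 for Prkdc (adjusted p = 0.222). Atr was then the 1 member called, where the same fit called 441 of all tested genes lower and 575 higher. What part of the members' values belongs to this library and what part to the knockdown was not tested beyond these comparisons.

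The p53 response was examined beside the repair genes, since the same kinases feed both. Trp53, which encodes p53, gave 536 and 454 CPM in shScramble and 539 and 465 CPM in shYthdf2, a log2 fold change of 0.02 (adjusted p = 0.949). Of 32 listed genes of the p53 pathway, 14 were called higher (43.8%, where 2.43% of all tested genes were) and 0 lower (where 1.49% were), and the median log2 fold change was 0.49. The list was chosen with earlier results of these data known. Both shYthdf2 libraries lay above both controls in 25 of the 32 (78.1%, where 26.2% of all genes did). Mdm2, the ubiquitin ligase that p53 induces and that degrades it, gave 155 and 149 CPM in shScramble and 247 and 211 CPM in shYthdf2, and rose by 0.59 on the log2 scale (SE 0.11, edgeR adjusted p = 0.025). The 5 largest called rises were those of Dcxr (1.39), Plk2 (1.34), Ephx1 (1.27), Btg2 (1.22) and Perp (0.98). Plk2 gave 48.4 and 30.7 CPM against 123 and 77.9 CPM, and Btg2, an antiproliferative gene, 41.5 and 32.9 CPM against 101 and 72.0 CPM. Cdkn1a, the cell cycle inhibitor p21, gave 59.7 and 73.4 CPM in shScramble and 103 and 75.5 CPM in shYthdf2, a log2 fold change of 0.43 that was not called (adjusted p = 0.172). Pmaip1, which encodes the apoptosis activator Noxa, lay the other way, with 43.3 and 51.7 CPM against 33.6 and 30.9 CPM (-0.56, adjusted p = 0.052). In the p53 list shYthdf2 replicate 1 was again the farther library, with a median log2 difference of 0.58 between libraries of number 1 and 0.44 between those of number 2.

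**Figure D5:**
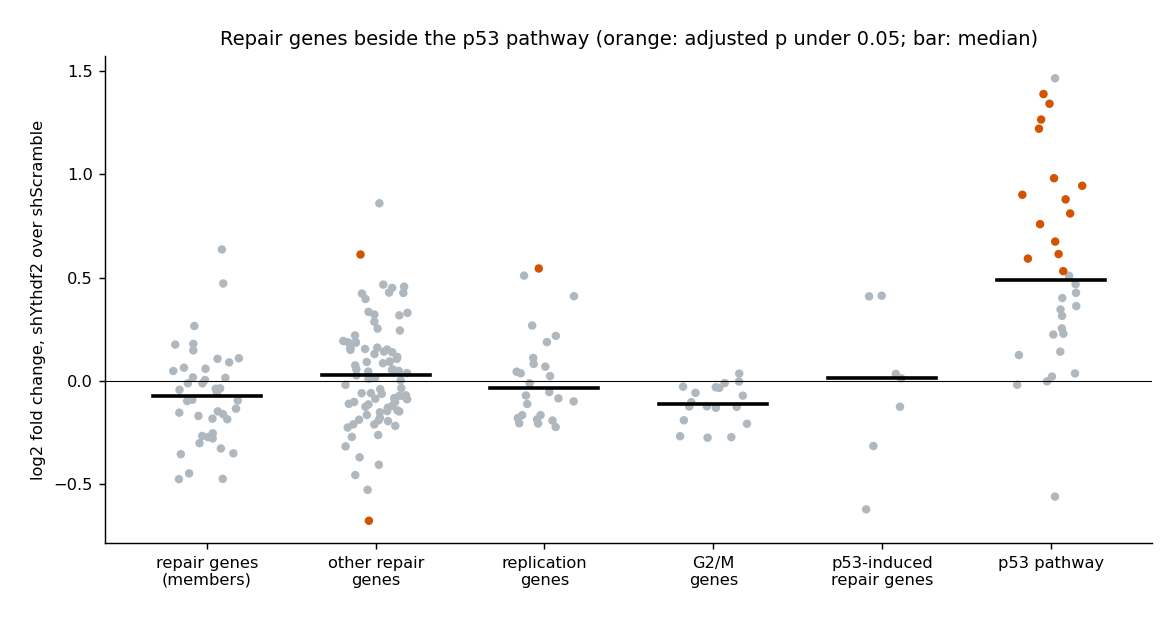
Log2 fold change of shYthdf2 over shScramble (vertical axis) for the genes of 6 lists (horizontal axis, points spread sideways for legibility), with the median as a bar and genes with an edgeR adjusted p under 0.05 in orange. The p53 pathway list has 14 of 32 genes called higher and a median of 0.49, the 42 repair genes have 0 called and a median of -0.07. The lists were chosen with earlier results of these data known.

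Repair genes that p53 is known to induce had no calls. Of 7 such genes, Ddb2, Xpc, Polk, Polh, Rrm2b, Gadd45a and Pcna, 0 were called, and the log2 fold changes ran from -0.62 to 0.41 with a median of 0.01. At an unadjusted p under 0.05, Ddb2 was lower (-0.62), and Polk (0.41) and Gadd45a (0.41) were higher. With shYthdf2 replicate 1 left out, Ddb2 was at -0.35 and Gadd45a at 0.22. The E2F factors and the DREAM repressor complex are the route through which p53 and p21 lower cell cycle genes. The 10 members commonly listed as their targets were Brca1, Bard1, Chek1, Rad54l, Fanca, Fancb, Fancd2, Fanci, Blm and Exo1. Of these 0 were called, where 2.43% of all genes were called higher and 1.49% lower. Their median was -0.15, and 8 of the 10 were below 0. So were 27 of the 42 members and 9128 of all 18341 tested genes. The summed level of the 10 was 943 and 986 CPM in shScramble and 807 and 954 CPM in shYthdf2. The median log2 difference was -0.24 between libraries of number 1 and -0.05 between those of number 2. The same list holds Blm, Rad54l and Fanca, each described above. Beside it, 26 replication genes had a median of -0.03 with 1 called, Tyms, which rose by 0.54. The 18 genes of G2 and mitosis had 0 calls and a median of -0.11, with 17 of the 18 below 0. At an unadjusted p under 0.05, 1 of the 18 was lower, where 9.80% of all genes were.

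Of 88 other genes of the same repair pathways, 87 were tested, with a median log2 fold change of 0.03. Of these 1 was called higher (1.15%, where 2.43% of all genes were) and 1 lower (1.15%, where 1.49% were). Both belong to damage signalling and to the choice between end joining and resection. Rnf169, which competes with 53BP1 for ubiquitin marks at breaks, gave 79.8 and 77.0 CPM in shScramble and 116 and 124 CPM in shYthdf2, and rose by 0.61 (SE 0.11, edgeR adjusted p = 0.017). Mad2l2, whose product REV7 joins the shieldin complex that works under 53BP1 and also the polymerase zeta of crosslink bypass, gave 35.9 and 39.6 CPM in shScramble and 24.6 and 22.6 CPM in shYthdf2, and fell by 0.68 on the log2 scale (SE 0.14, edgeR adjusted p = 0.030, but 0.071 without shScramble replicate 2). The groups were well apart in both genes. Its partners in shieldin were not called: Shld1 had a log2 fold change of 0.47, Shld2 of 0.07 and Shld3 of -0.10, and Rif1, which binds 53BP1, of -0.15. The genes of the Fanconi list closest to the threshold were 2 enzymes of ubiquitin transfer, Rfwd3 (379 and 363 CPM against 268 and 291 CPM, -0.41, adjusted p = 0.059) and Ube2t, the conjugating enzyme of FANCL (32.3 and 35.4 CPM against 24.0 and 22.9 CPM, -0.53, adjusted p = 0.065). Calls were 0 of 31 among other recombination genes, 0 of 13 among other end joining genes, 0 of 16 among other Fanconi genes and 0 of 4 among other mismatch repair genes. Atrip, the partner of ATR, was at 0 reads in all 4 libraries and could not be tested, and 99.0% of its exon bases lie in the overlapping gene Atrip-trex1, where reads are left out by the counting.

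Upstream sequences were available for 34 of the 42 members in the RefSeq table, and the 250 bases before the start were searched on both strands for 5 motifs. An E2F word (TTTCCCGC, TTTCGCGC, TTTGCCGC or TTTGGCGC) was found in 7 of the 34 (20.6%), against 1.9% of all 27025 upstream windows and 3.2% of the 13085 of tested genes. The 7 were Chek2, Mdc1, Brca2, Bard1, Xrcc6, Fancg and Msh3, whose log2 fold changes ran from -0.28 to 0.15. Of the members listed above as E2F and DREAM targets, only Bard1 was among the 7, and Fancd2 and Exo1 had no sequence available. The CCAAT box (CCAAT) was found in 19 of the 34 (55.9%, against 36.5% of tested genes), the NRF1 word GCATGCGC in 4 (11.8% against 4.0%), the ETS word CCGGAAGT in 3 (8.8% against 5.3%), and the CHR word TTTGAA, which the DREAM complex reads, in 2 (5.9% against 11.2%). The E2F and CHR words begin with the same letters, and no word contains another. In the sequences already shown, Atm held a CCAAT box and an NRF1 word, Fancc a CCAAT box and Atr none of the 5. Xrcc6, the only member with an E2F word and an unadjusted p under 0.05, and Bard1, the only one with both an E2F and a CHR word, are shown with their matches in capitals. A match is a run of letters and not a measured binding site.

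Xrcc6 chr15:82016119-82016368 (+ strand): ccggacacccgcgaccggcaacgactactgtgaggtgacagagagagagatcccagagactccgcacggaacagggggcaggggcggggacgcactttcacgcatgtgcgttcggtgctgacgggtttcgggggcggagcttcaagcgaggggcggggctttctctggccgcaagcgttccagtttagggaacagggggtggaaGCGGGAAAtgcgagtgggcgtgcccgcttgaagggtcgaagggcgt

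Bard1 chr1:71102973-71103222 (- strand): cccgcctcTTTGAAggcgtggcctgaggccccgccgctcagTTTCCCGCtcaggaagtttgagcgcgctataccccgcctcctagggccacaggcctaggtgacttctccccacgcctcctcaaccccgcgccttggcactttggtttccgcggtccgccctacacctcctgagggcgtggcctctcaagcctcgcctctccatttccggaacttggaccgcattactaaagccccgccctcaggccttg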

How the data were processed

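RNA from 4 cultures of E14 embryonic stem cells was measured by poly(A) RNA-seq. Groups and replicate numbers were taken from the sample titles. Per the labels, fastp version 0.19.4, HISAT2 version 2.2.1 and the mm10 build were used upstream, and the libraries were prepared with a strand-marking dUTP step. Per the file headers, the authors made the deposited counts by running featureCounts (version 2.0.3) on the exons of RefSeq genes. The paired-end option was set without pair counting, so both reads of a pair were counted. No strand option was set, and reads placed several times or over several genes were left out. The values were neither normalized nor pooled, and the table held 0 unmatched columns of sample values.

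Counts were tested with edgeR version 4.0.16 in R version 4.3.3 (quasi-likelihood F test, TMM scaling, filterByExpr with a minimum count of 10 and a minimum total of 15, no covariate, two-sided). Benjamini-Hochberg adjustment covered the 18341 genes that passed the filter, and a gene was called at an adjusted p under 0.05. Standard errors followed from the F statistics. The procedure was tested on simulated data. DESeq2 version 1.42.0 and limma version 3.58.1 were alternatives, as were other scalings, filters, halved counts, a block by replicate number, leaving out each library, and an offset for exon length chosen after the data were seen. CPM values are reads scaled by TMM library sizes, and RPKM values are CPM per kilobase of exon on the primary chromosome.

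The members and the gene lists were chosen with earlier results of these data known. Values in each library are given for every member with an unadjusted p under 0.05, for the highest and lowest log2 fold change within each role, and for the highest and lowest level per length. Of the other repair and p53 genes, those called are named, at most 5 in each direction per list, with Trp53, Mdm2 and Cdkn1a. Any other gene that is named was chosen after its values were seen. In a design of 2 against 2, the smallest two-sided p of an exact permutation test is 0.333, and p-values from the models are given instead. The labels do not say whether the 2 libraries of a group came from separately transduced cells. The p-values then rest on the spread between these libraries, combined with that over all tested genes. A gene without reads is bounded by 3 reads, or 0.083 to 0.095 CPM, which covers counting error only.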

Additional observations from a re-analysis of the deposited data

How the results depend on the processing

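Ythdf2 was called lower under all 14 alternatives, with a log2 fold change between -1.59 and -1.50. Over all genes, the count called higher was 445 and came to 1095 with no filter, 800 with DESeq2 and 534 to 1175 when 1 library was left out, and the count called lower was 273 and came to 843, 602, 441 with the exon-length offset, and 300 to 1113. Among the members, the count called lower was 0 and came to 2 with no filter and with DESeq2 (Atm and Atr in each), 1 with the length offset (Atr) and 0 to 7 when 1 library was left out, with 1 (Atm) without shScramble replicate 2 and 7 without shYthdf2 replicate 2 (Atm, Atr, Brca2, Blm, Prkdc, Fanca and Fanci). A fit without 1 library leaves a lone sample, which is assumed to vary like the other group. The members' median log2 fold change ranged from -0.153 to -0.0436 over those fits. Of 588 member values under the alternatives, 556 kept their sign, and 26 of the 42 members kept it throughout. The 16 that changed sign had reported log2 fold changes between -0.15 and 0.18. The length offset used the deposited length, which for Mdc1 and Rad51c includes copies on alternate contigs. With that offset the value was 0.049 for Mdc1, -0.030 for Rnf8, 0.0056 for Rad51c, -0.036 for Xrcc5 and -0.054 for Trp53, which was reported as 0.02. With upper-quartile scaling it was -0.0031 for Xrcc5 and -0.011 for Lig4. Lig4 was also at -0.0030 with the 1 CPM filter, -0.0017 with limma-voom and -0.0010 with halved counts. Leaving out 1 library gave ranges that crossed 0, which were -0.15 to 0.076 for Chek2, -0.26 to 0.20 for Mdc1, -0.25 to 0.31 for Rnf8, -0.047 to 0.17 for Rnf168, -0.12 to 0.20 for Brca1, -0.17 to 0.083 for Nbn, -0.13 to 0.19 for Rbbp8, -0.16 to 0.62 for Xrcc4, -0.048 to 0.081 for Xrcc5, -0.14 to 0.13 for Lig4, -0.21 to 0.0092 for Fancd2, -0.14 to 0.056 for Fance, -0.37 to 0.044 for Fanci, -0.062 to 0.26 for Msh3, -0.053 to 0.032 for Msh6, -0.095 to 0.15 for Trp53, -0.35 to 0.024 for Rif1 and -0.41 to 0.15 for Shld3. The cause of these sign changes was not tested. The count of p53 pathway genes called higher was 14 and ran from 13 without shScramble replicate 2 to 22 under the block. Mdm2 and Rnf169 were called under all 14 alternatives, Mad2l2, Gtse1, Trp53inp1, Tyms and Tdgf1 under all but that without shScramble replicate 2, Pmaip1 (lower) under 9, Rfwd3 under 8, and Ube2t and Cdkn1a under 4 each.

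Replicate numbers are shared by the groups, but 2 pairs are too few to show that they pair the samples. Same-numbered libraries deviated together over genes (correlation 0.29). With the replicate number as a block, 1851 genes were called higher and 1674 lower, and among the members 1 was called higher (Fancc) and 6 lower (Atm, Atr, Blm, Xrcc6, Prkdc and Fanca). Lig4 was at -0.0014, and no other member changed sign under the block.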
